A study of Arabidopsis thaliana with 16 samples.

Results

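TOR is a protein kinase conserved among eukaryotes that couples nutrient and energy supply to growth. When it is active it promotes protein synthesis, cell wall extension and cell division, and it holds back autophagy and the breakdown of reserves. In plants a loss of TOR is lethal to the embryo, so its role in seedlings is studied with inducible silencing.

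The genes described here are probe sets whose signal was lower by a set bound with the inducer in 3 seedling lines in which TOR can be silenced. They were lower by that bound in every line at both harvest days, but not by that bound in seedlings with an empty vector. A probe set had to lie at log2 4 or more in at least 3 of the 16 arrays. Its induced minus non-induced difference had to be -0.3 or lower (a signal at least 18.8% lower) in each of the 6 amiR-tor pairs, and above -0.3 in both empty-vector pairs. Of 13701 probe sets past the filter on dim signal, 42 met this rule, 0.307% of those tested. Before names were left out, 108 were at -0.3 or lower in all 6 amiR-tor pairs. Of these 108, 66 were also at -0.3 or lower in at least 1 empty-vector pair. The empty-vector pair met that bound for 10.5% of all kept probe sets at 6 days and 9.36% at 3 days. The 3 that belong to EXPB3, PRL and UGT85A4 were left out, and none of the 42 was listed as encoded in the plastid, which leaves 39 members. The members were thus chosen by their induction differences in all 8 pairs of arrays, and every value built from those differences, by line, by day or against the empty vector, is a description. Counts of calls on them are given beside their background, and nothing is read from them. The number of members follows the lines asked: with line 9 not asked it was 92, with line 17 not asked 84, and with line 20 not asked 390.

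The seedlings were Arabidopsis thaliana of the Col-0 background, germinated on hygromycin under continuous light and grown for 2 weeks. Induced amiR-tor seedlings carried an artificial microRNA against TOR under an estradiol-inducible promoter (lines 9, 17 and 20) and were kept on 20 µM estradiol for 6 or 3 days. Non-induced amiR-tor seedlings were the same lines on plates without estradiol for the same days. The empty-vector seedlings carried pER8 alone, with and without estradiol at both days, 1 array per condition. Whole seedlings were extracted, and each of the 16 samples was 1 single-colour ATH1 array of total RNA, so fewer cells of a type and less RNA per cell cannot be told apart. The series title names another gene, ORB1, and the groups rest on the sample titles. Separate cultures are not documented for the arrays of a line, and the spread behind each p-value may therefore be technical. Rubisco activase (RCA), a leaf gene, read high on all amiR-tor arrays, at 14.41 to 14.63 induced and 14.50 to 14.68 non-induced. It was the single one of 15 leaf marker loci on a named probe set. The 3 root markers of 15 that were on named probe sets (PYK10, EXPA7 and EXPA18) had a mean level of 7.40 to 9.06 induced and 8.01 to 8.60 non-induced.

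The arrays were of 2 kinds that no label names. The control probe set for 25S ribosomal RNA read 5.27 to 6.66 on 6 arrays and 11.38 to 11.99 on the other 10, and the 6 were the induced line 9 at either day together with lines 17 and 20 at 3 days, induced or not. On these 6 the 5′ minus 3′ actin signal was also lower, at -10.39 to -4.52 for the induced arrays and -4.65 and -4.47 for the non-induced ones, against -1.92 to -1.43 on the other 10. In line 9 induction and the kind of array cannot be told apart, whereas in lines 17 and 20 the kind was the same with and without inducer. For line 17 at 3 days the 5′ minus 3′ signal was still -8.58 induced and -4.47 non-induced.

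All 39 members lie on single-gene or unlisted probe sets: 21 were matched to a locus and 18 had no listed gene. None of the 21 has a gene symbol in the table used, so they are given by locus. They lie on all 5 nuclear chromosomes (5, 3, 6, 3 and 4 on chromosomes 1 to 5), with no neighbours among them: the closest pair stood 97 protein-coding genes apart. The members ranged from dim to bright. Their mean non-induced level in the lines ran from 4.09 to 12.72 with a median of 8.36, against a median of 7.78 over all kept probe sets, and 25 of the 39 lay above that median. In 37 of the 39 every non-induced amiR-tor array read log2 4 or more. In 4 members (AT2G36220, AT1G22330, 253209_at and 251225_at) at least 1 induced array read under 4, so their differences reach down into dim signal.

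**Figure D1:**
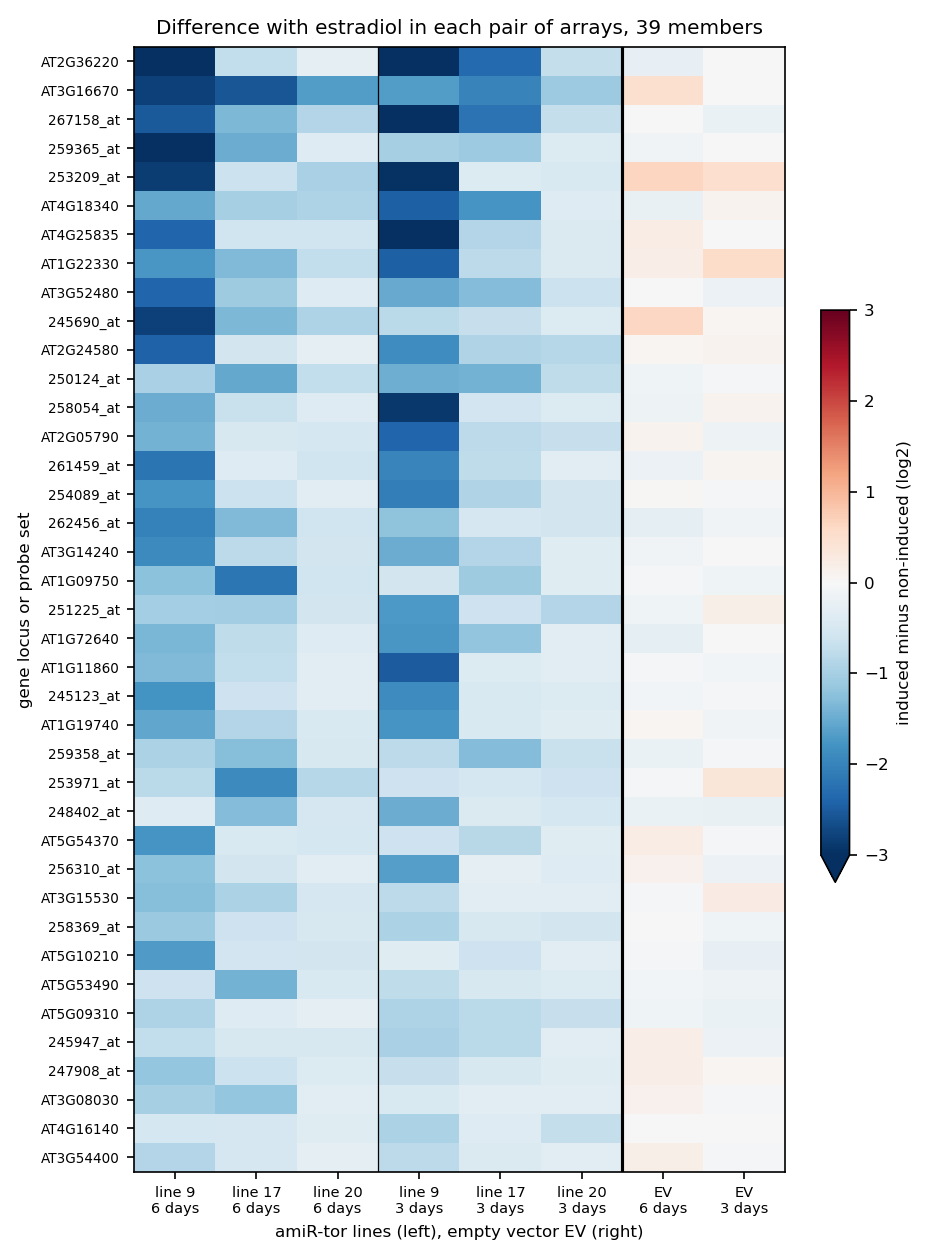
Induced minus non-induced difference (log2, colour, clipped at -3) of the 39 members (rows, ordered by their mean over the 6 amiR-tor pairs) in each pair of arrays (columns, 1 array per condition). The 6 amiR-tor columns on the left are all at -0.3 or lower by the rule, and the 2 empty-vector columns run from -0.29 to 0.65.

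Among the members with a locus, 5 encode secreted or cell wall proteins. AT3G16670 encodes a small secreted protein of the Ole e 1 family, named after an olive pollen allergen. At 6 days it read 7.37, 7.01 and 8.60 in induced lines 9, 17 and 20, against 10.16, 9.57 and 10.27 in the non-induced ones. The 3 day values were 8.19, 7.88 and 8.60 induced and 9.86, 9.88 and 9.69 non-induced. Induced and non-induced lines did not overlap at either day, and line 20 had the smallest difference at both. The difference was -2.34 ± 0.59 at 6 days and -1.59 ± 0.46 at 3 days (SD, n = 3 lines), and in the empty vector it was 0.47 and 0.02. It was the single member with a locus at -0.5 or lower in every amiR-tor pair, and the only one of the 39 at -1 or lower in all 6.

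A pair of members encode glucan hydrolases of family GH17, enzymes that cut callose-type glucans in the wall. AT4G18340 read 6.75, 7.58 and 6.94 at 6 days in induced lines 9, 17 and 20 and 8.29, 8.57 and 7.87 in non-induced lines. The 3 day values were 6.00, 6.45 and 7.22 induced and 8.44, 8.22 and 7.60 non-induced. The groups did not overlap, and the difference of line 20 was larger at 6 days (-0.93) than at 3 days (-0.38), while those of lines 9 and 17 were smaller at 6 days. AT2G05790 read 8.70, 9.28 and 9.66 at 6 days induced and 10.11, 9.77 and 10.18 non-induced. At 3 days it read 8.12, 8.67 and 9.08 induced and 10.50, 9.45 and 9.76 non-induced. It is 1 of 2 members whose difference was smaller at 6 than at 3 days in all 3 lines, at -0.81 ± 0.52 and -1.28 ± 0.95 (SD, n = 3).

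AT3G08030, a DUF642 protein of the cell wall, read 9.54, 9.60 and 10.41 in induced lines at 6 days and 10.53, 10.76 and 10.76 in non-induced lines. Its 3 day signal was 10.03, 9.97 and 10.16 induced against 10.49, 10.29 and 10.49 non-induced, again without overlap. Its difference was larger at 6 days in every line, -0.83 ± 0.43 against -0.37 ± 0.08 at 3 days (SD, n = 3). AT4G16140, of a proline-rich family, had differences of -0.46 ± 0.08 at 6 days and -0.69 ± 0.29 at 3 days (SD, n = 3), but its induced and non-induced lines overlapped at both days, with line 20 the highest in either state. Over these 5 genes the mean of the 6 pairs ran from -1.96 to -0.57, and the empty-vector differences from -0.23 to 0.47.

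Another 5 members encode proteases or proteins that share a domain or subunit type with proteases. AT3G14240 encodes a secreted serine protease of the subtilase family. It read 7.18, 8.21 and 8.72 in induced lines 9, 17 and 20 at 6 days, against 9.09, 9.00 and 9.28 in non-induced lines. At 3 days the values were 7.50, 7.45 and 8.32 induced and 8.98, 8.34 and 8.69 non-induced, so the groups came within 0.02 of each other without overlapping. Its empty-vector differences were -0.11 at 6 days and 0.02 at 3 days.

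AT1G09750 and AT3G54400 encode aspartic proteases of the pepsin-like family. AT1G09750 is one of few members with its largest difference in line 17. At 6 days it read 8.77, 7.82 and 9.91 in induced lines 9, 17 and 20 and 10.00, 9.99 and 10.50 in non-induced lines. At 3 days it read 9.69, 9.52 and 10.23 induced and 10.24, 10.59 and 10.59 non-induced. The difference was -1.33 ± 0.80 at 6 days and -0.66 ± 0.37 at 3 days (SD, n = 3), larger at 6 days in every line. AT3G54400 had the smallest mean difference of all members, at -0.56 ± 0.29 at 6 days and -0.52 ± 0.24 at 3 days. Its lines overlapped at both days, since line 20 read 11.19 and 11.36 with inducer at 6 and 3 days, above the non-induced values of lines 9 and 17 at each day.

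AT1G19740 encodes a protein with the substrate-binding domain of Lon proteases, and AT5G09310 a PEN-2 type subunit of gamma-secretase, a membrane protease complex characterised in animals. The difference of AT1G19740 was -0.96 ± 0.56 at 6 days and -0.86 ± 0.78 at 3 days, that of AT5G09310 -0.54 ± 0.34 and -0.81 ± 0.12 (SD, n = 3). At 3 days AT5G09310 was among the members most even across lines, with -0.93, -0.81 and -0.70 in lines 9, 17 and 20.

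**Figure D2:**
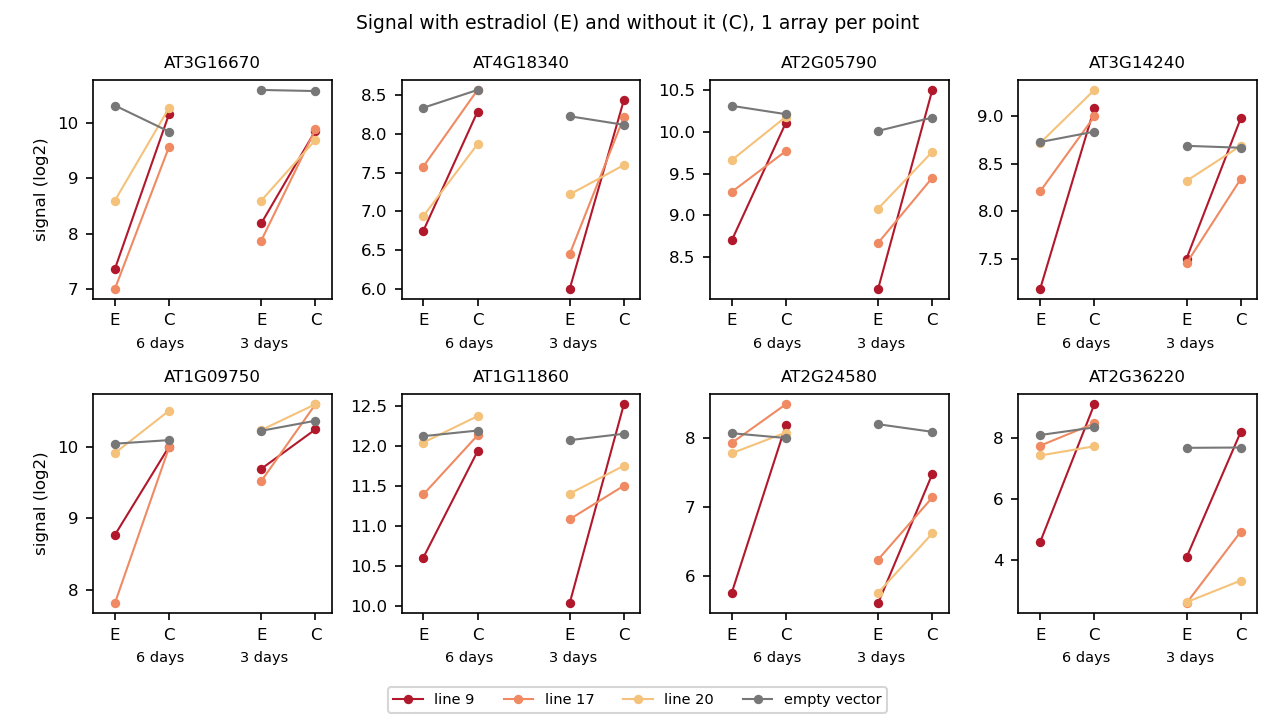
Log2 signal of 8 members with estradiol (E, left of each pair of points) and without it (C), at 6 days (left of each panel) and 3 days (right). Each point is 1 array and each line joins the arrays of one seedling line or of the empty vector. AT3G16670 lies between 7.01 and 8.60 in induced lines and between 9.57 and 10.27 in non-induced lines, while the empty vector stays between 9.84 and 10.59.

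Metabolic and chloroplast proteins made up the next 5. AT1G11860 encodes the T-protein of glycine decarboxylase, the mitochondrial complex that recovers carbon in photorespiration, and was among the brightest members. It read 10.60, 11.39 and 12.04 in induced lines 9, 17 and 20 at 6 days and 11.93, 12.13 and 12.37 in non-induced lines. At 3 days it read 10.03, 11.08 and 11.40 induced and 12.52, 11.50 and 11.75 non-induced. The groups overlapped at 6 days and not at 3 days, and lines 17 and 20 had differences between -0.74 and -0.33, against -1.33 and -2.49 in line 9 at 6 and 3 days.

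AT2G24580 encodes sarcosine oxidase, a flavin enzyme that acts on N-methylated amino acids. It read 5.76, 7.93 and 7.78 in induced lines at 6 days and 8.19, 8.49 and 8.08 in non-induced lines, and at 3 days 5.61, 6.24 and 5.76 against 7.48, 7.14 and 6.62. The groups did not overlap, yet line 20 sat exactly on the bound at 6 days with -0.30. In the empty vector its level was 8.07 with and 8.0 without estradiol at 6 days, and 8.20 and 8.09 at 3 days.

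AT5G53490 encodes a pentapeptide-repeat protein of the thylakoid lumen. It read 9.35, 9.25 and 10.14 in induced lines at 6 days against 9.96, 10.67 and 10.59 in non-induced lines, which overlapped. At 3 days it read 10.06, 10.07 and 10.00 induced and 10.82, 10.55 and 10.40 non-induced, without overlap. AT1G72640, with a Rossmann-type NAD(P)-binding fold, had differences of -0.84 ± 0.49 at 6 days and -1.08 ± 0.72 at 3 days (SD, n = 3). AT3G15530, of the methyltransferases that use S-adenosylmethionine, had -0.91 ± 0.39 and -0.49 ± 0.25, with the larger value at 6 days in every line. In the empty vector AT1G72640 differed by -0.28 at 6 days and -0.02 at 3 days, beside -0.39 and -0.32 in line 20.

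The AAA-type ATPase gene AT4G25835 and the RNA-binding protein gene AT1G22330 had their largest differences in line 9. AT4G25835 differed by -2.38, -0.60 and -0.59 in lines 9, 17 and 20 at 6 days and by -3.09, -0.87 and -0.43 at 3 days. AT1G22330 differed by -1.75, -1.33 and -0.73 at 6 days and by -2.45, -0.79 and -0.43 at 3 days. In the empty vector both were higher with estradiol, AT4G25835 by 0.22 and 0.02 and AT1G22330 by 0.21 and 0.54 at 6 and 3 days.

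No role is given here for the other 4 loci. AT2G36220 had the largest mean difference over the 6 pairs, -2.12, but it was -1.02 without line 9 and -0.94 with the kind of array as a covariate. AT3G16670 was lower in both of these settings, at -1.83 and -1.88. AT2G36220 read 4.60, 7.76 and 7.44 in induced lines 9, 17 and 20 at 6 days and 9.12, 8.49 and 7.74 in non-induced lines. Its 3 day signal was 4.10, 2.60 and 2.63 induced and 8.21, 4.94 and 3.34 non-induced. Induced and non-induced lines overlapped at both days. Its 6 values under 5 came from the 6 arrays with low 25S signal. For AT3G52480 the difference was -1.27 ± 1.01 at 6 days and -1.16 ± 0.45 at 3 days, for AT5G54370 -0.92 ± 0.74 and -0.61 ± 0.24, and for AT5G10210 -0.94 ± 0.66 and -0.44 ± 0.16 (SD, n = 3).

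The 18 members with no listed gene covered the same sizes, with a mean over the 6 pairs of -1.85 to -0.63 (median -1.0), against -2.12 to -0.54 (median -0.96) for the 21 with a locus. The largest were 267158_at (-1.85), 259365_at (-1.48), 253209_at (-1.39) and 245690_at (-1.16). Probe set 253209_at was near the floor of the array in induced lines, at 2.33, 3.78 and 3.78 at 6 days and 2.12 in all 3 lines at 3 days. Non-induced lines 9, 17 and 20 read 5.09, 2.53 and 2.57 at 3 days. The 3 day differences of lines 17 and 20 (-0.41 and -0.45) thus lay wholly near the floor.

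Several members lay close to the bound. In 26 of the 39 the least negative of the 6 differences was between -0.4 and -0.3. Just inside were AT2G36220 and AT2G24580, at -0.30 in their weakest pair. Just outside were AT5G19290 and 263601_s_at at -0.29, with means of -1.70 and -0.85. With a bound of -0.5 in the amiR-tor pairs 6 members were left. Of the 39, 35 had a difference of -1 or lower in at least 1 pair.

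Line 9 had the largest differences and line 20 the smallest. At 6 days the median of the members was -1.50, -0.77 and -0.48 in lines 9, 17 and 20, and at 3 days it was -1.48, -0.76 and -0.42, while the median of all kept probe sets lay between 0.00 and 0.12 in these pairs. In the empty vector the members had a median of -0.03 at each day. Line 9 had the largest difference for 31 members at 6 days and 33 at 3 days, and line 17 for the other 8 and 6. Line 20 had the smallest for 33 members at 6 days and 29 at 3 days, and it set the least negative value of 31 members. All kept probe sets spread in the same order of lines: the SD of their differences was 0.97, 0.60 and 0.37 at 6 days and 0.97, 0.51 and 0.33 at 3 days, against 0.33 and 0.28 in the empty vector. The bound of -0.3 was met by 30.3%, 23.5% and 13.4% of them at 6 days and by 28%, 20.3% and 12.4% at 3 days, so line 20 was the most restrictive pair at each day. The empty vector met it for 10.5% at 6 days and 9.36% at 3 days.

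**Figure D3:**
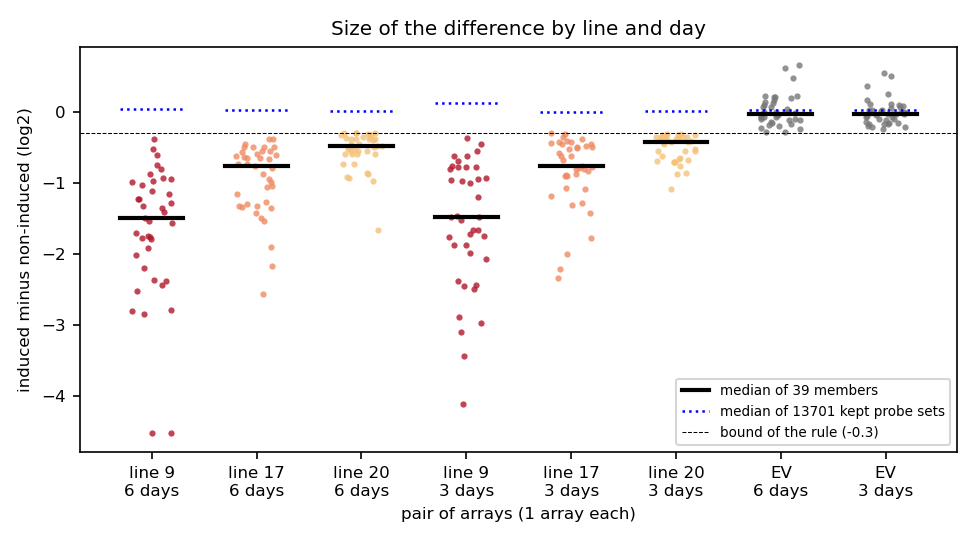
Induced minus non-induced difference (log2) of each of the 39 members (points) in the 8 pairs of arrays, with the members' median (black bar), the median of all 13701 kept probe sets (dotted) and the bound of the rule at -0.3 (dashed). The members' medians are -1.50, -0.77 and -0.48 in lines 9, 17 and 20 at 6 days and nearly the same at 3 days.

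The lines were set side by side in a limma fit on the 6 differences of all kept probe sets, with the days as repeats. Its SE and p-values rest on the spread between the 2 days within lines, as no line had a further pair at a day. The same values had chosen the members, and a single bound on lines of unequal spread leaves more strongly negative values in the line that spreads most, so the order of the lines among the members is partly set by the rule. Line 9 minus the mean of lines 17 and 20 was lower past the threshold (adjusted p under 0.05) for 11 of the 39 members, beside 4.65% of all kept probe sets, and higher for none, beside 2.2%. With dim probe sets added to the fit 0 members passed. Among loci the estimates were -3.30 ± 0.45 for AT2G36220, -2.11 ± 0.26 for AT4G25835, -1.49 ± 0.28 for AT2G24580, -1.12 ± 0.22 for AT1G19740 and -1.04 ± 0.22 for AT3G14240 (SE). This contrast also sets pairs that changed the kind of array against pairs that did not, and line and kind cannot be told apart in it.

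Line 17 minus line 20, with each pair on 1 kind of array, was negative for 37 of the 39 members (median -0.26, against -0.01 for all kept probe sets), a direction that the wider spread of line 17 favours among members chosen at the same bound. None passed in limma, with 3 members and 436 kept probe sets at an unadjusted p under 0.05 and 0% of all called. The pairs were not alike in 5′ minus 3′ actin signal at 3 days. It was -8.58 induced and -4.47 non-induced in line 17, and -4.52 and -4.65 in line 20. The part of this in the contrast was not tested. Among members with a locus, the largest moderated statistics were those of AT1G09750 (-1.15 ± 0.42 SE), AT1G72640 (-0.62 ± 0.26) and AT3G16670 (-0.90 ± 0.44), and AT4G16140 had the single positive one (0.10 ± 0.26).

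Both days had to pass the same bound, which partly sets how alike they are among the members. The difference was larger at 6 than at 3 days for 19, 23 and 21 of the 39 members in lines 9, 17 and 20, and smaller for 19, 16 and 18. In all 3 lines it was larger at 6 days for 8 members, among them AT3G16670, AT1G09750, AT3G15530 and AT3G08030, and smaller for 2, AT2G05790 and the unlisted 254089_at. Induction at 6 days minus induction at 3 days, from the fit over all 16 arrays, had a median of -0.03 over the members, against -0.01 over all kept probe sets. No member and no kept probe set passed in limma (0% called), with 0 members and 234 kept probe sets at an unadjusted p under 0.05. Among members with a locus, the largest moderated statistics were those of AT3G08030 (-0.46 ± 0.30 SE), AT3G15530 (-0.42 ± 0.28) and AT5G10210 (-0.51 ± 0.34) on the negative side, and AT2G05790 (0.47 ± 0.47), AT5G09310 (0.27 ± 0.33) and AT4G18340 (0.38 ± 0.49) on the positive side.

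The order of the members by size was shared between days mainly in line 9. Across the 39 members, which are not independent replicates and are cut off at the same bound, Spearman's rho of the 6 day with the 3 day difference was 0.51, 0.25 and 0.11 in lines 9, 17 and 20, against 0.65, 0.36 and 0.35 over all kept probe sets. The 2 differences of a line share no array, but in line 9 both cross the kinds of array.

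Induction over both days was lower past the threshold for 11 of the 39 members, beside 0.628% of all kept probe sets (limma, Benjamini-Hochberg adjusted p under 0.05), a share that the rule raises by choosing probe sets lower in all 6 pairs. At 6 days 1 member was, AT3G16670, beside 0.0657%, and at 3 days none, beside 0%, with 23 members and 1782 kept probe sets at an unadjusted p under 0.05. All 3 induced lines lay below all 3 non-induced lines for 25 members at 6 days, beside 6.5% of all, and for 30 at 3 days, beside 7.15%, which the rule favours in the same way.

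Without inducer the members were compared between days. Both groups had entered the rule in the same way, but the rule is not neutral to this contrast. It asked for a lower signal in line 9, where only the induced arrays had low 25S signal. Over all kept probe sets the mean line 9 difference correlated with the mean non-induced day difference of lines 17 and 20 (Spearman's rho -0.48). The rule can therefore favour members that were higher at 6 days in lines 17 and 20. In lines 17 and 20, whose non-induced arrays had high 25S signal at 6 days and low at 3 days, the members were higher at 6 days by a median of 0.35 and 0.48, against -0.04 and -0.03 for all kept probe sets. In line 9 and the empty vector, where both arrays were of 1 kind, the members' median was -0.17 and 0.04. In both lines 17 and 20, 19 of the 39 members were higher by 0.3 or more, 48.7%, against 12.2% of all kept probe sets. Of these, 9 of 19 members and 937 of 1670 kept probe sets were under 0.3 in line 9 and the empty vector. That share was no larger among the 19 members than among the 1670. Counted over all 39 members and all 13701 kept probe sets, it was 23.1% and 6.8%. In these 2 lines day and kind of array cannot be told apart. The part of the kind of array in the induction differences of line 9 was not tested.

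AT2G36220 moved most, with 6 day minus 3 day differences of 0.91, 3.55 and 4.40 in non-induced lines 9, 17 and 20 and 0.66 in the empty vector. Over the lines it differed by 2.95 ± 1.14, AT5G10210 by 0.63 ± 0.24 and AT3G15530 by 0.58 ± 0.20 (SE; limma adjusted p = 0.72 each). AT1G09750 (-0.31 ± 0.42), AT5G54370 (-0.21 ± 0.40) and AT5G53490 (-0.18 ± 0.26) had the most negative statistics among members with a locus. No member and no kept probe set passed in limma (0% called), with 5 members and 928 kept probe sets at an unadjusted p under 0.05. Without line 9, day and kind of array changed together in the lines left. There 2 members passed, one of them AT2G36220 (3.98, limma adjusted p = 0.0199), and 310 probe sets in all.

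**Figure D4:**
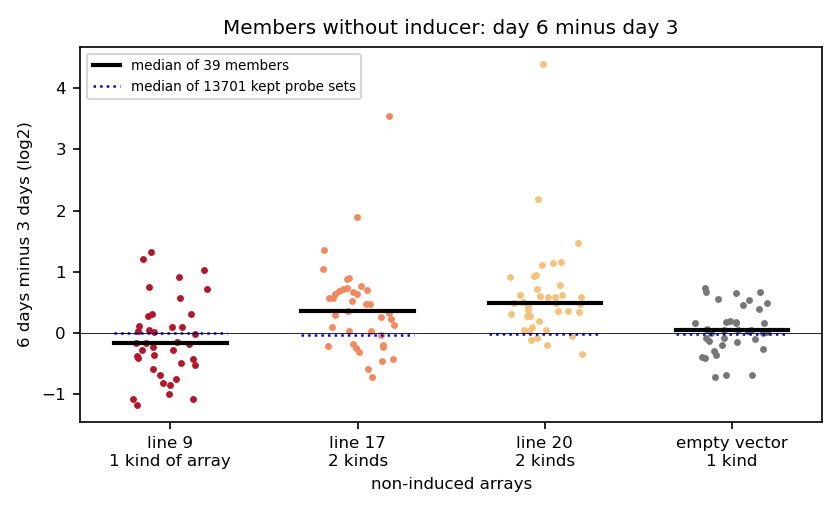
Day 6 minus day 3 signal (log2) of each of the 39 members (points) on non-induced arrays, by line and for the empty vector, with the members' median (black bar) and the median of all kept probe sets (dotted). Lines 17 and 20, whose arrays were of 2 kinds at the 2 days, have medians of 0.35 and 0.48, and line 9 and the empty vector -0.17 and 0.04.

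None of the members was on the gene lists used for related processes, most of whose loci were not on a named probe set. Over both days, among 12 kept of 21 CC-type glutaredoxins, small redox proteins linked to nitrate and cytokinin responses, AT3G62950 fell by 2.17 ± 0.40 (SE; limma adjusted p = 0.0251), GRX480, which acts with TGA factors in defence, rose by 1.33 ± 0.31 (limma adjusted p = 0.0461), and 10 did not pass (median of the 12 -0.21). Of 8 kept of 24 chlorophyll synthesis loci, PORB, a light-dependent protochlorophyllide reductase, fell by 1.44 ± 0.25 (limma adjusted p = 0.021) and HEMB1 fell by 0.56 ± 0.13 (limma adjusted p = 0.0484). The other 6 did not pass, but all 8 had negative values (median -0.56), such as -1.10 ± 0.28 for HEME1, a uroporphyrinogen decarboxylase (limma adjusted p = 0.058). By pair, the median of the 8 was -0.90, -0.94 and -0.34 in lines 9, 17 and 20 at 6 days. At 3 days it was -0.91, -0.26 and -0.08. In the empty vector it was -0.08 at 6 days and -0.12 at 3 days, and that of the 12 glutaredoxins was -0.03 and -0.26. Of 7 kept tubulin genes TUB5 fell by 0.68 ± 0.16 (limma adjusted p = 0.0479) and 6 did not pass (median of the 7 -0.25). The 3 kept histidine synthesis genes did not pass (median -0.45), and PRL, the single kept gene of 9 on the MCM helicase list, fell by 0.67 ± 0.15 (limma adjusted p = 0.0461). PRL had met the rule and is no member only because it was left out by name. Its fall in every amiR-tor pair was set by the rule, so its call is a description. The background was 0.628% lower and 2.22% higher, with a median of 0.03. No list gene passed in limma without line 9, without line 17 or with the kind of array as a covariate, and the 8 chlorophyll genes had negative values in each of these fits. None of 23 aquaporin loci was on a named probe set. Set against the empty vector, whose pairs the rule also used, induction over both days passed in limma for none of the 39 members (9 at an unadjusted p under 0.05), beside 0% of all kept probe sets lower and 0.0073% higher.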

How the data were processed

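The authors deposited log2 signals. The submitters' processing notes name GCRMA, whose version is not given in the sources read for this work. They ran from 2.12 to 15.32, and array medians lay between 5.60 and 5.68. Precision is limited by the number of arrays. Of 22810 probe sets, 64 controls and 9045 dim ones (log2 under 4 in all but at most 2 arrays) were left out. Names came from GEO's platform annotation through the RefSeq table of TAIR10.1, which gave a locus to 53.5% of the 13701 kept probe sets. An unlisted member could be plastid-encoded. No sequences are shown. The members, lists and tests were chosen with earlier results of these data known.

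Differences were rounded to 2 decimals before the rule was applied. limma 3.58.1 (R 4.3.3; lmFit, eBayes) fitted 1 mean per group to the 16 arrays, and line differences to the 6 paired differences, both adjusted by Benjamini-Hochberg over all kept probe sets and tested on simulated data. An empty-vector group has 1 array, assumed to vary like the lines. Same-line arrays are paired by label: deviations of induced and non-induced arrays from their group means correlated at -0.23 to 0.23. The highest correlation between arrays was 0.992, so none looked like copies. Named were members with a locus (the 15 largest without a symbol by rule, the other 6 added, after their values were seen, to account for all), the 4 largest unlisted, those nearest the bound, and members with a locus that were past the threshold or had the largest statistics in the day and line contrasts. Alternatives were other bounds and filters, quantile normalization, each line left out, the line as a block, and the kind of array as a covariate.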

Additional observations from a re-analysis of the deposited data

Results flagged for a closer look

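In 7 members every amiR-tor pair was lower with estradiol while both empty-vector pairs were higher, 17.9% of the members against 30.4% of all kept probe sets. In 14 members both empty-vector pairs were lower, 35.9% against 18.5% of all kept probe sets, within the bound the rule set there. The direction in the lines was fixed by the rule, and the difference between the lines and the empty vector was not tested independently of the rule; in the limma fit over all kept probe sets no member passed (9 had an unadjusted p under 0.05). In the empty vector AT3G16670 differed by 0.47 at 6 days and 0.02 at 3 days, AT1G22330 by 0.21 and 0.54, AT4G25835 by 0.22 and 0.02, and AT2G24580 by 0.07 and 0.11. The unlisted 253209_at differed by 0.65 and 0.50, 245690_at by 0.62 and 0.05, and 247908_at by 0.21 and 0.06. Each of these is 1 pair of arrays, and the SD of all kept probe sets in those pairs was 0.33 at 6 days and 0.28 at 3 days.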

How the results depend on the processing

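The rule makes every member negative in any subset of the lines, so the sign under a left-out line says nothing about stability. The members' median over both days of -0.98 (SD over lines 0.58) was -0.62 without line 9, -1.05 without line 17, -1.26 without line 20, -0.99 after quantile normalization and -0.72 with the kind of array as a covariate. With the line as a replicate block it was -0.98, no day contrast gained a call, and 7 list genes passed, against 6. The number of members was 104 at a bound of -0.2 (31 of the 39 among them, since the empty-vector bound moved too), 6 at -0.5, 103 with the empty-vector condition dropped, 52 after quantile normalization (37 of the 39) and 84 to 390 with 1 line left out. Day 6 minus day 3 without inducer had 1 call with the covariate and 0 to 310 with 1 line left out (members 0 to 2), and its member median was -0.28 with the covariate against 0.26 without it. There AT5G53490 ran from -0.37 to 0.15 with 1 line left out (positive without line 9) and AT5G54370 from -0.63 to 0.04 (positive without line 17); the cause was not tested. Line 9 minus the mean of lines 17 and 20 had 36 calls, 0 of them members, with dim probe sets kept, against 939 and 11. List genes past the threshold were 0 with the covariate and 0 to 5 with 1 line left out. The test by line could not be made for each day alone, which leaves 1 value per line.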
